A study of Homo sapiens with 6 samples.

Results

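The messenger RNA of 34 amino acid transporters was measured in HT29 cells, a human colon adenocarcinoma cell line, on Affymetrix HGU133 Plus 2.0 microarrays. The members were the genes of the solute carrier (SLC) families SLC1, SLC3, SLC6, SLC7, SLC16, SLC36, SLC38 and SLC43 on a list of amino acid carriers. Each is named alone by at least 1 probe set in the platform annotation. The rule uses no measured value, but the list was drawn up with earlier results of these arrays known, so its counts are a description. They are 34 of 19775 genes with a probe set of their own, and they hold 87 of the 54675 probe sets. The series has 6 arrays, 3 of control cells and 3 of cells treated with NS398, a drug that inhibits the prostaglandin-forming enzyme COX2 selectively over COX1. According to the study's methods, the treated cells received the highest of several doses for days in medium free of fetal calf serum, and the solvent DMSO served as control. All arrays come from this 1 line. The study's methods call the samples of a group biological replicates, while the labels number them without saying that they came from separate cultures, so the p-values measure the spread between these arrays, whatever its source.

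Amino acids cross the plasma membrane mainly through carriers of the SLC families. Some carriers work alone. Others are dimers in which a light chain of SLC7 carries the substrate and a heavy chain of SLC3 brings it to the cell surface. Uniporters let amino acids run down their gradient, exchangers swap one amino acid for another, and carriers coupled to sodium, chloride or protons concentrate their substrate. When amino acids are short or the endoplasmic reticulum is under stress, cells raise the transcription factor ATF4, which is known to induce several of these genes together with enzymes of amino acid synthesis. In the colon epithelium and in tumours derived from it, LAT1, ASCT2 and xCT are among the best known carriers, supplying large neutral amino acids, glutamine and cystine.

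The values are signals of probe sets in arbitrary units. They were taken to the log2 scale, and a difference is always NS398 minus control, with each array called as it is labelled. These directions oppose those of the study. Every probe set in the part of its table of raised transcripts that was used here, those of SLC6A6, SLC7A8, SLC38A10 and SLC38A11 among them, was lower in the arrays labelled NS398. The conflict is thus not limited to carriers, and if the labels of the groups were interchanged, every sign given below would turn. A gene was read from its brightest probe set, since levels of different probe sets cannot be set against each other. "Higher" and "lower" stand for an adjusted p under 0.05 in limma with a variance trend, adjusted over all 54675 probe sets. The sign ± stands for limma's moderated standard error of the difference, with n = 3 arrays in each group. Its variance is drawn toward a trend over all probe sets. It can therefore be smaller or larger than the error from a gene's own arrays, and smaller where those arrays are uneven. Probe sets with a mean log2 signal of 7 or less, that is a signal of at most 128, are called dim here. Array medians lay between 65 and 80.2. Over the 22399 probe sets that were not dim, arrays of 1 group correlated at r = 0.961 to 0.983 and arrays of different groups at r = 0.931 to 0.952. The ratio of 3′ to 5′ signal of ACTB was 1.27 to 1.32 in the controls and 1.45 to 1.71 in the arrays labelled NS398, and the signal of the 18S ribosomal RNA was 3453 to 4856 in the controls and 4825 to 23625 in the others. The part of either in the results below was not tested. Of 10 epithelial markers 9 were not dim, among them EPCAM at 25358 in the controls and 26131 in the NS398 arrays, while CDX2, a defining factor of intestinal cells, was dim at 46 and 38.3. Of these markers 3 were higher, CEACAM5 (4.09 ± 0.20), KRT20 (1.15 ± 0.11) and LGALS4 (0.38 ± 0.08), and VIL1 was lower (-0.71 ± 0.13). Of the other cell types, 6 of 7 fibroblast, 4 of 6 leukocyte and 4 of 5 endothelial markers were dim. The fibroblast marker LUM was higher, from 45.5 to 215 (2.24 ± 0.38, adjusted p = 0.00514), and the leukocyte marker LYZ, which did not pass, read 28307 and 31323. The part of these markers in the results was not tested.

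Of the 34 transporters, 12 were higher in the NS398 arrays, 1 was lower and 21 did not pass. The share that was higher was 35.3%, beside 5.23% of all genes, and the share that was lower was 2.94%, beside 4.85% of all genes. These shares are not matched for brightness, since 26 of the 34 transporters were not dim, beside 10668 of all 19775 genes. Among genes that were not dim, 11 of the 26 transporters were higher, beside 967 of the 10668. The median difference was 0.58 over the transporters and 0.06 over all genes. Above 0 lay 27 of the 34 transporters, beside 10820 of all 19775 genes, and 7 transporters lay below it. In 19 transporters every NS398 array lay above every control array, a pattern that 17.2% of all genes showed, and in 3 every NS398 array lay below, as in 13.5% of all genes. The 12 higher transporters were both ASCT exchangers, all 3 carriers of system A, both of the cationic carriers that were not dim, 1 heavy chain, 2 light chains, the glycine carrier SLC6A9 and SLC38A6. The 1 lower transporter was the taurine carrier SLC6A6. In bulk RNA, a change in the cells that carry a transcript and a change of RNA per cell cannot be told apart. Without the variance trend and robust estimation, limma called none of the 34, with 15 at an unadjusted p under 0.05, and only 15 of all genes.

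**Figure D1:**
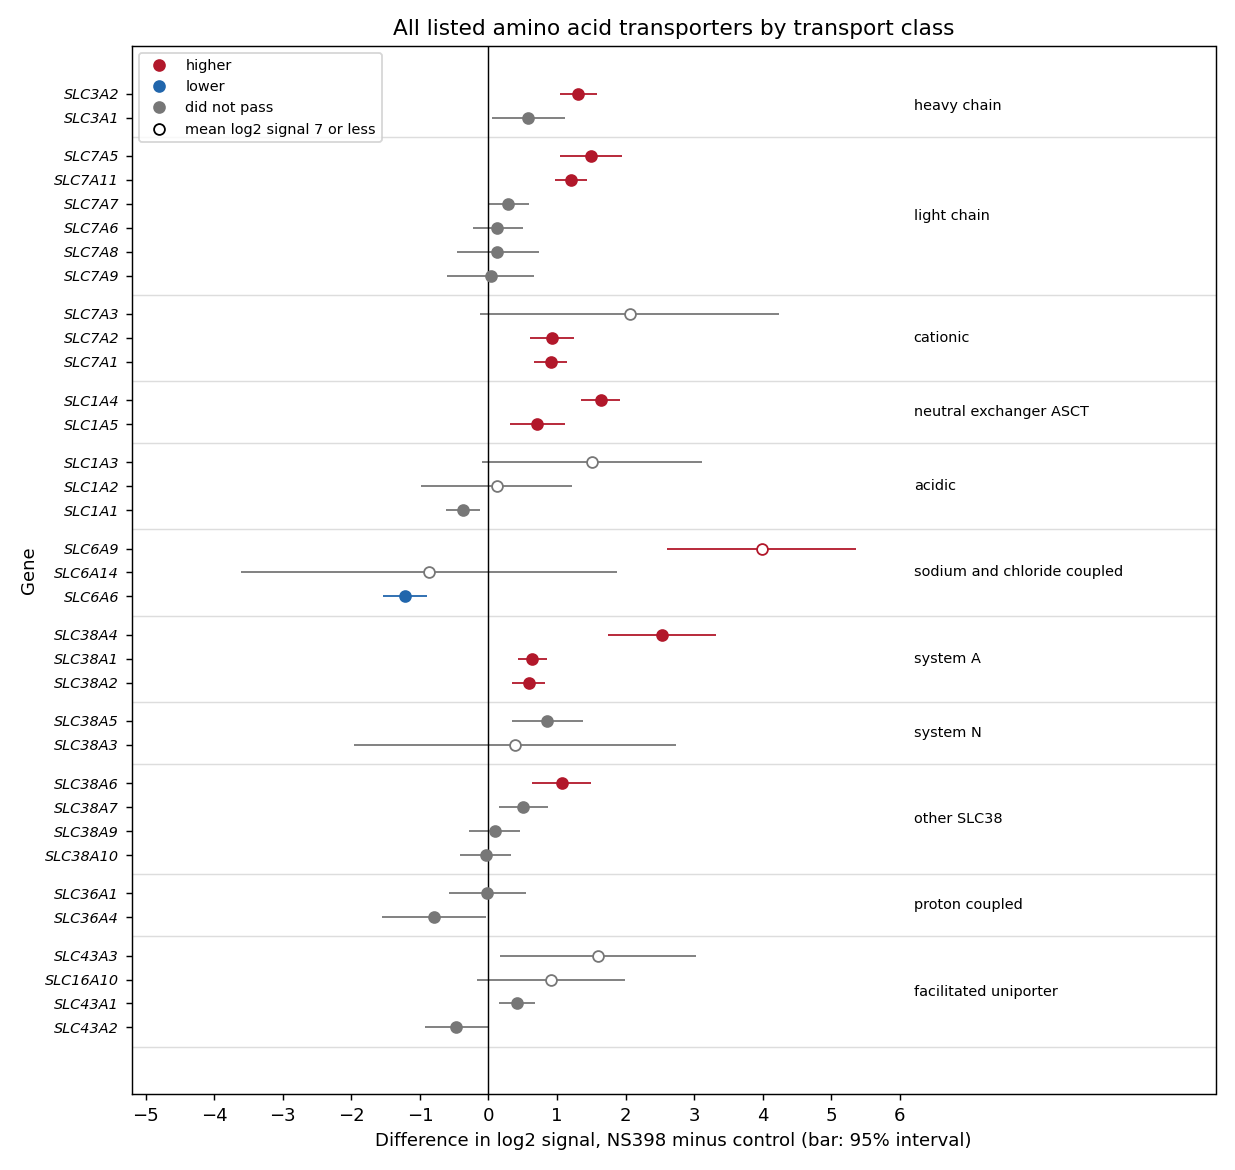
Difference in log2 signal, NS398 minus control, of each of the 34 transporters, grouped by transport class, with its 95% interval from limma as a bar. Red points were higher, the blue point was lower and grey points did not pass. Open points are dim, and all but 1 of the 12 red points are filled.

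**Figure D2:**
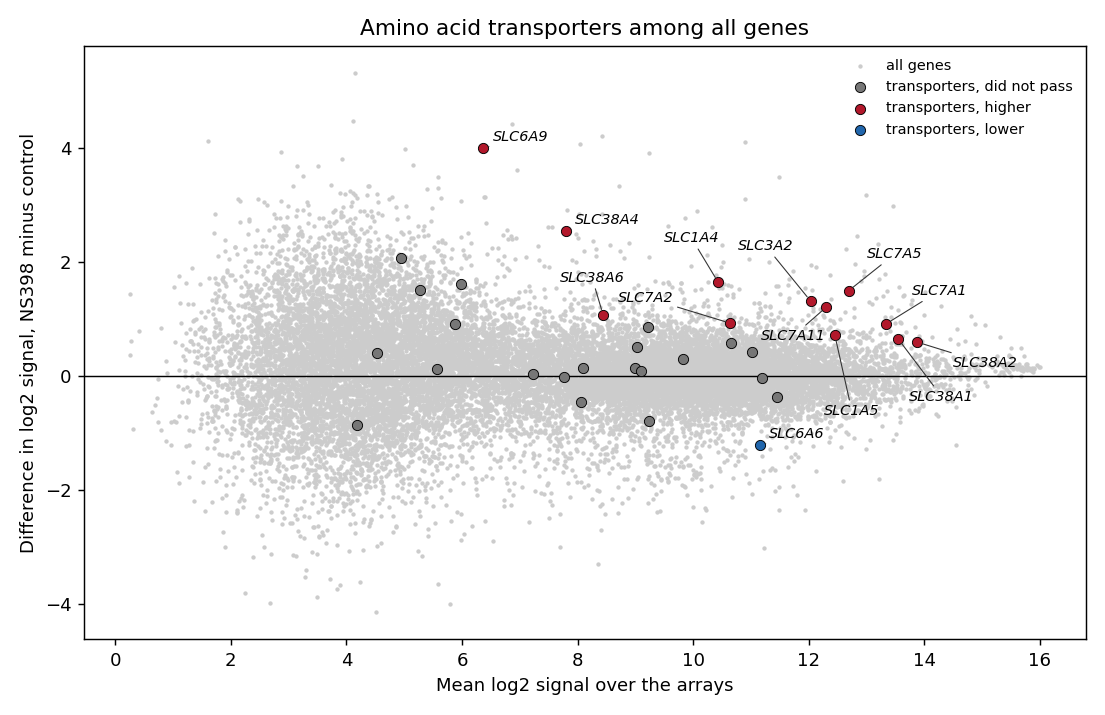
Mean log2 signal over the 6 arrays against the difference in log2 signal for all 19775 genes (small grey points) and the 34 transporters (large points, the called ones named). The 12 higher transporters lie between 0.59 and 3.99, and the spread of all genes widens toward low signals.

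Since ATF4 is a known regulator of several carriers, the start sites of the transporters were searched for the letters it is known to bind. RefSeq windows on build GRCh38.p14, from 250 bases before to 50 bases after a start, were at hand for 26 of the 34 genes, 47 windows in all, and were searched on both strands for 7 patterns. The pattern TGATGNAA, the core of the C/EBP-ATF response element, stood in a window of 5 of the 10 higher transporters that have one and of 1 of the 16 others, SLC1A3. Of the 47 windows of the transporters 6 held it. Of all 35116 windows 3.62% held it, and of all 27305 genes with a window 4.46% did. A gene can have several windows, the patterns were chosen with the array values known, and a match describes letters and not a bound site. The matches of the higher transporters are shown so that the letters behind this count can be read, with the pattern in capitals, 5′ to 3′ on the strand of the gene. SLC1A4 is at chr2:64989279-64989418 (plus strand), SLC38A1 at chr12:46266497-46266636 (minus), SLC7A1 at chr13:29595669-29595808 (minus) and SLC1A5 at chr19:46784795-46784934 (minus), each from 120 bases before to 20 bases after the start. SLC3A2 at chr11:62881719-62881748 (plus) is 30 bases inside the transcript. A gene can have several starts in RefSeq, and the start used here need not be its outermost. In SLC1A4, SLC3A2, SLC38A1 and SLC1A5 it lay inside the range of the gene. In SLC1A5, SLC38A1 and SLC3A2 at least 1 other window, nearer the outer end of the gene, did not hold the pattern.
SLC1A4: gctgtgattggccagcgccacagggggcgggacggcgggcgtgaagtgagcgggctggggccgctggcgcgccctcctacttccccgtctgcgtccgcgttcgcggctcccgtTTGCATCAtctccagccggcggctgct
SLC3A2: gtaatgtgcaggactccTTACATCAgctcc
SLC38A1: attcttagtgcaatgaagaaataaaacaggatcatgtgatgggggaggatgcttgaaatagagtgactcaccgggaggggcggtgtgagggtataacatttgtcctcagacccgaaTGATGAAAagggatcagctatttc
SLC7A1: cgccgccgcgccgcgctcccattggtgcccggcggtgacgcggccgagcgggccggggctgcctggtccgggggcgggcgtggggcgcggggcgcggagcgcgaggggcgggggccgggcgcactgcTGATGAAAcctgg
SLC1A5: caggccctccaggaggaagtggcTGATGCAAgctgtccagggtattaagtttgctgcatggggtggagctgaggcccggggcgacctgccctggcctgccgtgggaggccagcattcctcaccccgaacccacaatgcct
In SLC1A4 and SLC3A2 the capitals are the reverse complement of the pattern. Counted from the first transcribed base as 1, with no position 0, the match began at -7 in SLC1A4, -4 in SLC38A1, 8 in SLC7A1, 38 in SLC3A2 and -97 in SLC1A5. The full form TGATGCAA, which the first pattern contains, stood in SLC1A4, SLC1A5 and SLC1A3, beside 0.866% of all windows and 1.08% of all genes with a window. The other patterns were spread over both kinds of transporter. TGATGNNNG stood in 3 of the 10 higher and 3 of the 16 other transporters (10.4% of all windows and 12.6% of all genes with a window), and TGACNNNGC in 4 and 3 (13.3% and 16.1%). TGACTCA stood in 2 and 5 (4.95% and 6.05%), CACGTG in 2 and 6 (7.26% and 8.77%) and CCAAT in 4 and 8 (34.6% and 39.7%). TGATGNNNG can share its first letters with TGATGNAA, and TGACNNNGC with TGACTCA.

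Among the heteromeric carriers, the heavy chain SLC3A2 (4F2hc, also CD98) and its light chains SLC7A5 and SLC7A11 were higher, and the other 4 light chains were not called. SLC3A2, which carries several light chains to the membrane, read 2953, 2365 and 2670 in the controls and 6314, 6003 and 7484 in the NS398 arrays. Every NS398 array was more than double every control array. The difference was 1.31 ± 0.12, or 2.48-fold, with an adjusted p of 1.43e-04. SLC7A5 (LAT1), the exchanger of leucine and other large neutral amino acids, read 5652, 2805 and 3916 in the controls and 10545, 10214 and 12711 in the NS398 arrays. The controls were spread over a wider range than the treated arrays, and the groups did not overlap. The difference was 1.49 ± 0.20 (adjusted p = 0.00148).

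SLC7A11 (xCT) brings in cystine in exchange for glutamate and so feeds glutathione synthesis. It read 2930, 3357 and 3694 in the controls and 7732, 7665 and 7500 in the NS398 arrays. The 3 treated arrays were nearly equal, with an SD of 0.02 on the log2 scale, and all lay far above the highest control. The difference was 1.20 ± 0.11 (2.3-fold, adjusted p = 1.01e-04), and a second bright probe set gave 0.95 ± 0.15. Its remaining probe set, weaker but not dim, gave 0.63 ± 0.21 and did not pass (adjusted p = 0.112). SLC7A11 is also a known target of NRF2, the factor that answers oxidative stress.

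The remaining chains did not pass. SLC3A1 (rBAT), the heavy chain of the renal and intestinal cystine carrier, read 840, 1940 and 1420 in the controls and 1971, 2076 and 1892 in the NS398 arrays, so that control 2 lay among the treated arrays. The difference was 0.58 ± 0.24, with a 95% interval of 0.05 to 1.11 and an adjusted p of 0.217. Its light chain SLC7A9 had a difference of 0.03 (95% interval -0.61 to 0.67). The light chains of system y+L, SLC7A7 and SLC7A6, exchange cationic for neutral amino acids. SLC7A7 had a difference of 0.29 (interval -0.01 to 0.59) and SLC7A6 of 0.13 (interval -0.23 to 0.50). SLC7A8 (LAT2) had 0.13 (interval -0.46 to 0.73) on its brightest probe set, but a dimmer one was lower. That one read 125, 275 and 148 in the controls and 64.6, 10.5 and 19.5 in the NS398 arrays, a difference of -2.86 ± 0.65 with an adjusted p of 0.0228. It is 1 of 5 probe sets of SLC7A8, and the other 4 did not pass.

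The cationic carriers of SLC7 take up arginine, lysine and ornithine without a heavy chain. SLC7A1 (CAT1), the widespread member, read 8966, 6842 and 7086 in the controls and 14552, 13787 and 14375 in the NS398 arrays. The treated arrays lay close together and well above the highest control. The difference was 0.91 ± 0.11 (1.88-fold, adjusted p = 7.25e-04). SLC7A2 (CAT2), an inducible member, read 1275, 957 and 1273 in the controls and 2206, 2036 and 2358 in the NS398 arrays, again without overlap. The difference was 0.92 ± 0.14, nearly that of SLC7A1, with an adjusted p of 0.00291. When all probe sets of a gene were averaged, neither passed, at an adjusted p of 0.342 for SLC7A1. SLC7A3 (CAT3) was dim, with controls from 3.8 to 74.1 and NS398 arrays from 44.0 to 80.0, and its difference of 2.06 had an interval of -0.12 to 4.23.

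**Figure D3:**
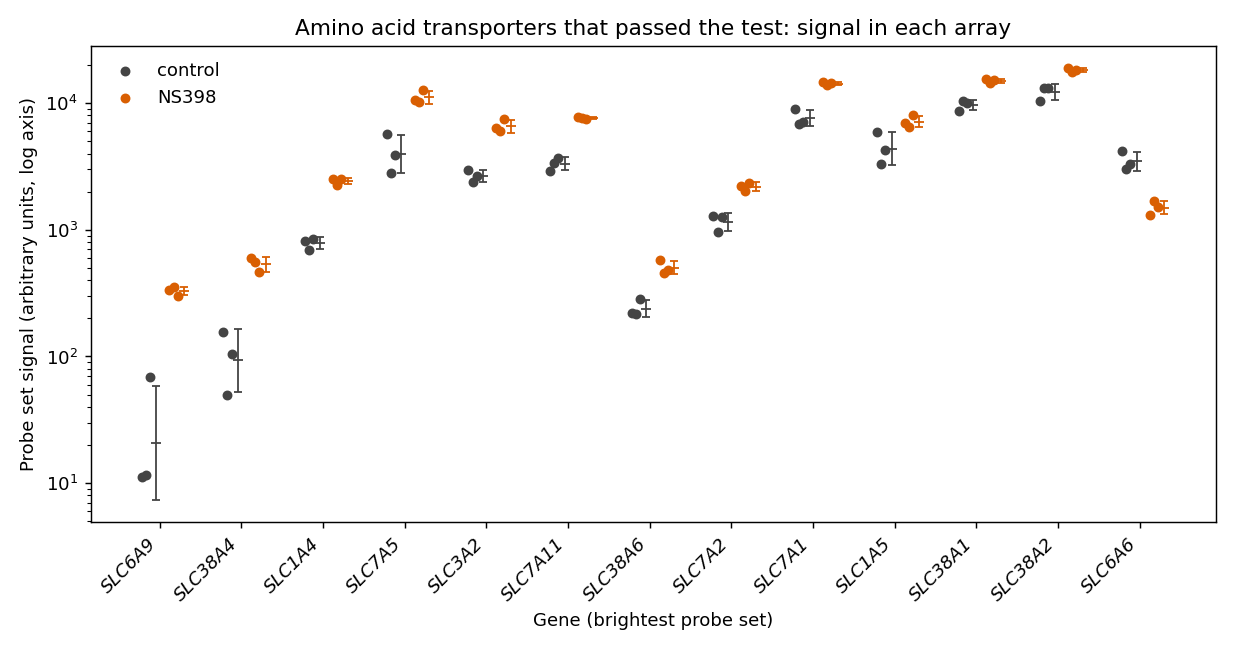
Probe set signal on a log axis of the 13 transporters that passed the test, in each control array (grey) and each NS398 array (orange), with the mean of the log2 values and 1 SD beside the points. No group of points overlaps its partner, and SLC6A6 is the only gene with the orange points below.

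Both ASCT exchangers of SLC1 were higher. SLC1A4 (ASCT1), which exchanges alanine, serine and cysteine, read 811, 690 and 853 in the controls and 2506, 2261 and 2528 in the NS398 arrays. The groups were tight and far apart. The difference was 1.64 ± 0.13 (3.11-fold, adjusted p = 5.22e-05), and all 5 of its probe sets were higher, by 1.40 to 1.80. SLC1A5 (ASCT2), the exchanger best known for glutamine uptake, read 5953, 3293 and 4272 in the controls and 6973, 6524 and 8028 in the NS398 arrays. Control 1 came near the lowest treated array, without overlap. The difference was 0.71 ± 0.18 with an adjusted p of 0.041. This call was lost without control 2 (0.50, adjusted p = 0.0977), without control 3 (0.142) and without any single NS398 array (0.0875 to 0.148), and kept without control 1. It was also lost with medians set equal (0.59, adjusted p = 0.146) and when every gene was tested on the mean of its probe sets (0.0585).

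The acidic carriers of SLC1, which take up glutamate and aspartate, had no member that passed. SLC1A1 (EAAC1), the epithelial one, read 2845, 3391 and 3344 in the controls and 2288, 2577 and 2549 in the NS398 arrays. Every treated array lay below every control on both of its probe sets. The difference was -0.37 ± 0.11, with an adjusted p of 0.0909. The glial carriers SLC1A2 and SLC1A3 were dim in all arrays, with differences of 0.12 (interval -0.99 to 1.22) and 1.51 (interval -0.09 to 3.11).

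System A couples the uptake of small neutral amino acids such as alanine and glutamine to sodium, and its 3 genes were all higher. SLC38A1 (SNAT1) read 8641, 10378 and 10027 in the controls and 15394, 14387 and 15252 in the NS398 arrays. SLC38A2 (SNAT2), the member known to respond to amino acid starvation, read 10382, 13271 and 13190 in the controls and 19030, 17595 and 18419 in the NS398 arrays. In both genes control 1 was the lowest array and the groups did not overlap. The difference was 0.64 ± 0.10 for SLC38A1 (adjusted p = 0.00246) and 0.59 ± 0.11 for SLC38A2 (adjusted p = 0.00728). All 3 probe sets of SLC38A2 were higher, by 0.51 to 0.59. With medians set equal, the difference of SLC38A2 was 0.47 and missed the threshold at an adjusted p of 0.0524.

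SLC38A4 (SNAT4), best known from liver, read 155, 49.9 and 104 in the controls and 604, 554 and 462 in the NS398 arrays. The control signals were low and uneven, and all treated arrays lay far above them. The difference was 2.53 ± 0.36 (5.76-fold, adjusted p = 0.00183), and a second, dim probe set gave 2.01 ± 0.52. The 3 genes are neighbours on chromosome 12 of GRCh38.p14, where SLC38A1 runs from 46183063 to 46269043, SLC38A2 from 46358188 to 46372773 and SLC38A4 from 46764761 to 46832431.

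Of the 6 remaining SLC38 carriers, SLC38A6 alone passed on its brightest probe set. SLC38A6 (SNAT6) read 221, 218 and 283 in the controls and 576, 456 and 485 in the NS398 arrays, a clear gap. The difference was 1.07 ± 0.20 (2.1-fold, adjusted p = 0.0075). The system N carrier SLC38A5 (SNAT5), which moves glutamine, asparagine and histidine, read 624, 309 and 437 in the controls and 702, 789 and 905 in the NS398 arrays. The groups did not overlap, but the difference of 0.86 ± 0.24 missed the threshold at an adjusted p of 0.0555. Its relative SLC38A3 (SNAT3) was dim, with a difference of 0.39 (interval -1.96 to 2.74). SLC38A7, a glutamine carrier of lysosomes, had a difference of 0.51 (interval 0.15 to 0.87, adjusted p = 0.104), while 1 of its 4 probe sets was higher by 0.83 ± 0.19. SLC38A9, the lysosomal arginine sensor that acts on mTORC1, had 0.09 (interval -0.29 to 0.46). SLC38A10 had -0.04 (interval -0.42 to 0.33), and none of its 7 probe sets passed.

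The SLC6 carriers, coupled to sodium and chloride, went both ways. SLC6A9 (GLYT1), the glycine carrier, read 11.1, 11.6 and 69.1 in the controls and 335.0, 350.9 and 301.1 in the NS398 arrays. The controls were dim and uneven, and the treated arrays were close to each other and above them all. The difference of 3.99 ± 0.63 was the largest of the 34 (adjusted p = 0.00315), and since control signals this low lie near background, its size is uncertain: over the alternatives it ran from 2.65 to 4.85. SLC6A6 (TauT), the taurine carrier, read 4193, 3022 and 3311 in the controls and 1316, 1673 and 1523 in the NS398 arrays. All treated arrays lay far below the lowest control. The difference was -1.22 ± 0.15, a 2.32-fold lower signal (adjusted p = 6.66e-04). The next brightest of its 5 probe sets gave -1.27 ± 0.34 and missed the threshold at 0.0501, and with all 5 averaged the gene did not pass (-0.87, adjusted p = 0.253). SLC6A14 (ATB0,+), a carrier of broad range, was dim, with a difference of -0.87 and an interval of -3.61 to 1.87.

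None of the proton coupled carriers or uniporters passed on its brightest probe set. SLC36A4 read 392, 1273 and 992 in the controls and 458, 485 and 428 in the NS398 arrays, so that control 1 lay below all treated arrays while the other two lay above. The difference was -0.79 ± 0.34 (adjusted p = 0.241). SLC36A1 (PAT1), the lysosomal and brush border carrier, had -0.02 (interval -0.58 to 0.54). Of the uniporters of large neutral amino acids, SLC43A1 (LAT3) read 1902, 1729 and 1714 in the controls and 2222, 2279 and 2673 in the NS398 arrays, without overlap. Its difference of 0.42 ± 0.12 missed the threshold at 0.0635. SLC43A2 (LAT4) read 299, 367 and 277 against 199, 243 and 239, also without overlap but in the other direction (-0.47 ± 0.21, adjusted p = 0.266). SLC43A3, listed beside them by family and not for this substrate, was dim, with a difference of 1.60 (interval 0.17 to 3.03, adjusted p = 0.208). The aromatic amino acid carrier SLC16A10 (TAT1) was dim as well, and its probe sets disagreed. The brightest gave 0.91 ± 0.49, whereas another read 120, 97.2 and 93.4 in the controls and 11.6, 13.1 and 17.6 in the NS398 arrays (-2.89 ± 0.57, adjusted p = 0.0113).

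Over the single probe sets, 25 of the 87 were higher and 3 were lower, beside 3.26% and 3.17% of all probe sets. Of the 34 genes, 22 have several probe sets, 13 have any that was higher and 6 have more than 1. The lower ones belong to SLC6A6, SLC7A8 and SLC16A10. In SLC1A4, SLC38A2 and SLC38A4 every probe set passed in the same direction. In SLC7A1 the 3 brightest of 5 were higher, by 0.91 to 1.25, and the dimmest had -1.55 ± 1.05. In SLC38A1 3 of 4 were higher, by 0.64 to 0.82.

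**Figure D4:**
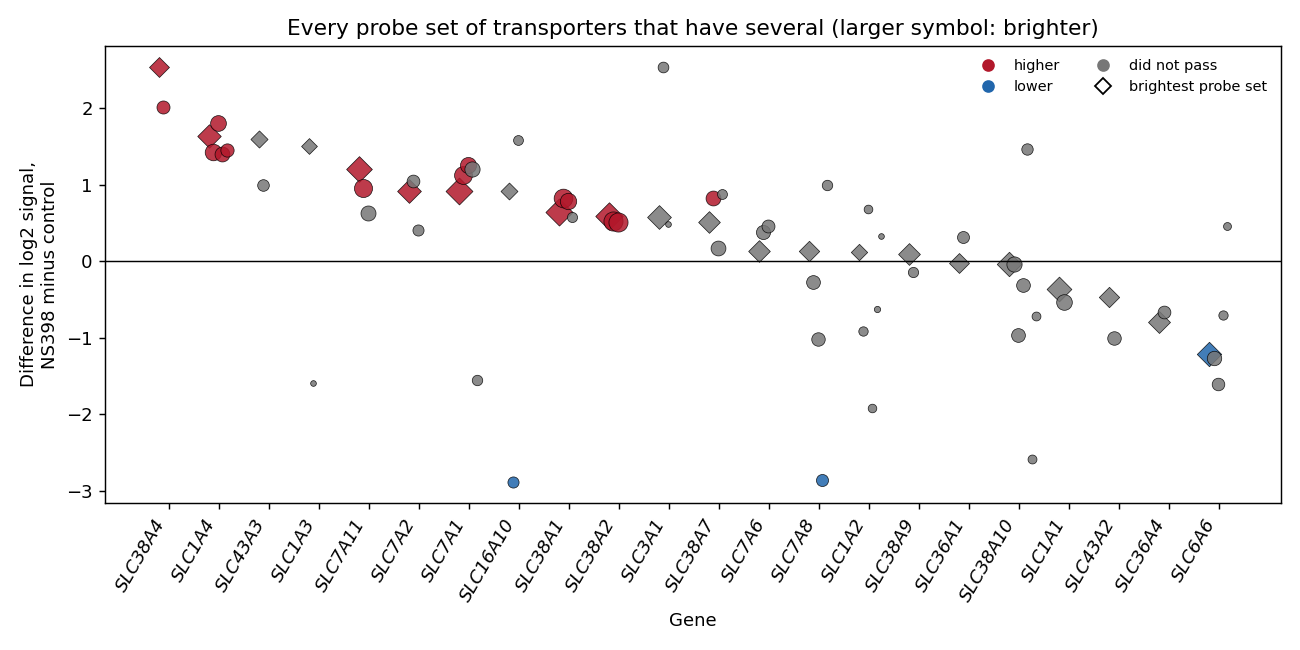
Difference in log2 signal, NS398 minus control, of every probe set of the 22 transporters that have several, ordered by the brightest one (diamond), with larger symbols for brighter probe sets. Red symbols were higher, blue ones lower and grey ones did not pass, and the wide scatter lies in the small symbols.

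By family, and among the 34 members only, SLC7 had 4 of 9 genes higher and SLC38 4 of 9, with medians of 0.91 and 0.59. All 9 differences of these SLC7 members were above 0, and 8 of those of the SLC38 members. SLC1 had 2 of 5 higher, SLC3 1 of 2 and SLC6 1 of 3, while SLC36, SLC43 and SLC16 had none. Outside the 34, SLC38A11 was lower (-1.79 ± 0.17). Of SLC7A4, SLC7A10, SLC7A13 and SLC7A14, all dim and not called, only SLC7A14 lay below 0 (-0.16). Of the 34 genes 26 were not dim, and these hold 11 of the 12 higher ones, as 967 of the 1035 higher genes overall were not dim.

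The genes around the transporters were read in the same way. Of 29 known genes of the ATF4 or amino acid response, 28 were measured, 21 were higher and none was lower, with a median of 1.25. The share that was higher was 75%, beside 5.23% of all genes. However, 25 of the 28 were not dim, beside 10668 of all 19775 genes. ATF4 itself, named here because the list is its pathway, read 20865, 20235 and 19065 in the controls and 41874, 41220 and 40492 in the NS398 arrays. The difference was 1.04 ± 0.08 (adjusted p = 3.06e-05). The called genes with the smallest p were TRIB3, an ATF4 target that feeds back on it (2.31 ± 0.10, adjusted p = 1.92e-06), and CHAC1, which breaks down glutathione (2.61 ± 0.13). They were followed by the asparagine synthetase ASNS (1.66 ± 0.09) and the serine synthesis enzyme PSAT1 (1.70 ± 0.11). The transcription factor CEBPB was also higher (1.32 ± 0.10, adjusted p = 4.14e-05). It is named because its direction opposes the one in the study. Of the 7 that did not pass, ATF3 had -0.49 (adjusted p = 0.0957) and PPP1R15A, the phosphatase subunit that ends the stress response, had -0.44 (adjusted p = 0.206).

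Of 15 known NRF2 targets, 14 were measured, 13 were higher and none was lower, with a median of 1.31. The share that was higher was 92.9%, beside 5.23% of all genes, and none of the 14 was dim. The smallest p were those of the reductases AKR1C1 (2.97 ± 0.11, adjusted p = 6.97e-07) and AKR1B10 (1.47 ± 0.09), the malic enzyme ME1 (1.91 ± 0.13) and GCLC (1.35 ± 0.11), which catalyses the first step from cysteine to glutathione. GSR, the 1 that did not pass, had 0.56 ± 0.15 at an adjusted p of 0.0532.

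Of 23 other amino acid carriers, outside the 34, 20 were measured and 16 of these were dim. The share that was higher was 0%, beside 5.23% of all genes, and the share that was lower was 5%, beside 4.85% of all genes. None was higher, and SLC38A11 was lower, with 1169, 1547 and 1489 in the controls and 345, 420 and 451 in the NS398 arrays (-1.79 ± 0.17, adjusted p = 1.50e-04). The median difference was 0.41. Of 11 mitochondrial carriers, the glycine carrier SLC25A38 was higher by 0.61 ± 0.13 (adjusted p = 0.017) and the carrier of basic amino acids SLC25A29 was lower by 1.07 on the log2 scale (adjusted p = 0.0151), with a median of 0.13. The shares that were higher and lower were 9.09% each, beside the same 5.23% and 4.85% of all genes.

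**Figure D5:**
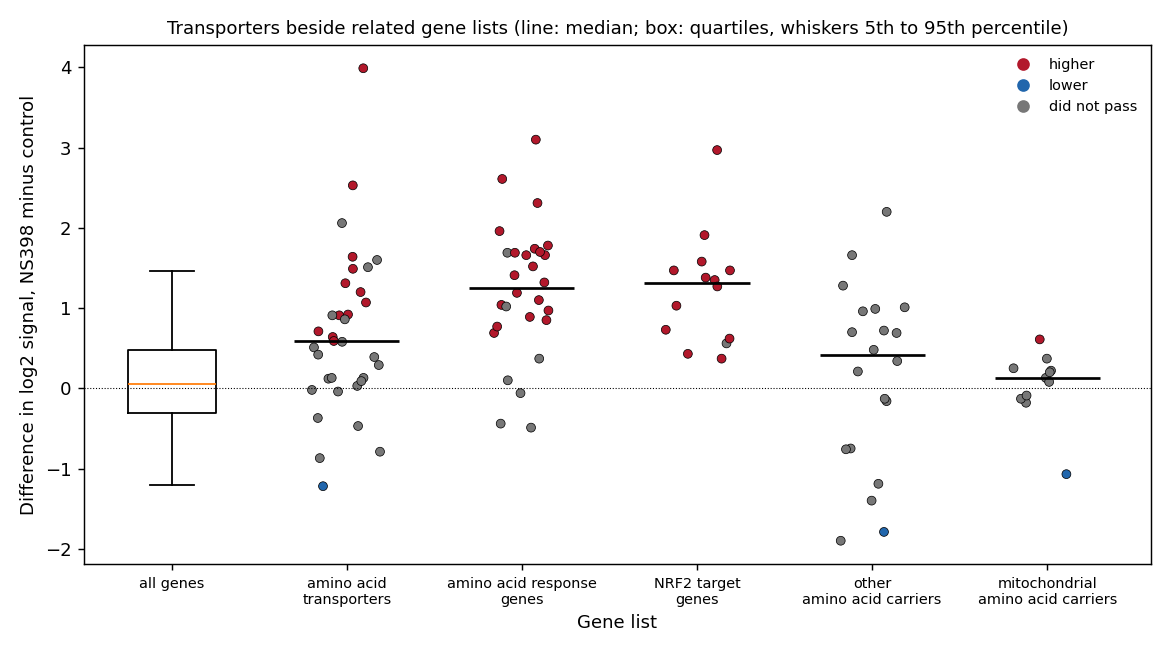
Difference in log2 signal, NS398 minus control, for all genes (box: quartiles and median, whiskers: 5th to 95th percentile) and for each gene of 5 lists (points, with the list's median as a line). Medians are 0.58 for the transporters, 1.25 for the amino acid response genes, 1.31 for the NRF2 targets, 0.41 for other carriers and 0.13 for mitochondrial carriers.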

How the data were processed

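Total RNA was labelled with biotin and hybridised to 1 array per sample. The deposited values are intensity signals on a linear scale. The authors' methods name gcRMA, but each deposited column has a mean of 500 after 2% is trimmed at each end, and the design had expected log values; the signals were therefore used as linear and taken to log2 with no offset and no further normalisation. The submitters' processing notes name affy. No count or depth exists for arrays, so the number of arrays limits the precision.

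Groups came from the sample titles. Identifiers in the study's table of changed transcripts were used only to set its directions beside the labels. The platform annotation gave 41097 probe sets 1 gene, 1801 several and 11777 none, and 41043 were matched to current symbols. limma 3.58.1 in R 4.3.3 fitted treatment with eBayes, variance trend and robust estimation, with Benjamini-Hochberg adjustment over all 54675 probe sets. Tables and figures used Python 3.11.15, pandas 2.3.3 and matplotlib 3.10.9. The code was tested on simulated data. All members are named, called ones with every array's value, and of each list the up to 4 called genes with the smallest p. Members and lists were chosen with earlier results of these data known. Alternatives were plain eBayes, median centring, quantile normalisation, a mean log2 above 7, an offset of 32, array weights, averaging a gene's probe sets, a replicate block and leaving out each array. SAM, named in the methods, was not run, since it rests on permuted splits of the arrays.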

Additional observations from a re-analysis of the deposited data

How the results depend on the processing

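With 3 arrays in each group the counts depend most on how the variance is estimated. Plain eBayes, without variance trend and robust estimation, called 0 transporters higher and 0 lower, 15 of all genes (1995 with both), 1 amino acid response gene, 0 other carriers, 0 mitochondrial carriers and 1 NRF2 target. The count of higher transporters, 12, was 9 with the mean of all probe sets and 10 with median centring, and otherwise lay between 12 and 14 (SLC6A9, which is dim, was not tested among genes with a mean log2 above 7), and leaving out 1 array gave 11 to 14. The count of lower transporters, 1, was 2 among genes with a mean log2 above 7 and 0 with the mean of all probe sets, and leaving out 1 array gave 1 to 3, with 3 without control 1, when SLC1A1 and SLC36A4 passed as well. All genes called ranged from 1038 to 2286 on leaving out 1 array, and were fewest without NS398 1 (1038), NS398 2 (1077) and control 3 (1106). Other carriers were 2 with array weights. Mitochondrial carriers, 2, were 1 with median centring, with the mean of all probe sets and with the replicate block, and 0 to 3 on leaving out 1 array, with 0 without control 3, NS398 1 or NS398 2. SLC38A5 and SLC43A1 passed with array weights, without control 1 and among genes with a mean log2 above 7.

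Median centring moved the median difference of all probe sets from 0.06 to -0.06, and quantile normalisation to 0.01. No transporter that passed the test changed sign. Changes of sign, all in transporters that did not pass, were SLC1A2 (-0.01 with median centring, -0.03 with quantile normalisation, -0.39 with the mean of all probe sets), SLC1A3 (-0.04 with that mean), SLC7A8 (-0.60), SLC16A10 (-0.13), SLC36A1 (0.14, and 0.07 with array weights), SLC38A9 (-0.02, and -0.03 with median centring) and SLC7A9 (-0.09 with median centring, -0.0016 with quantile normalisation). On leaving out 1 array the differences ran from -0.05 to 0.31 in SLC1A2, -1.79 to 0.67 in SLC6A14, -0.15 to 0.40 in SLC7A8, -0.13 to 0.23 in SLC7A9, -0.20 to 0.19 in SLC36A1, -0.14 to 1.44 in SLC38A3, -0.05 to 0.17 in SLC38A9 and -0.24 to 0.10 in SLC38A10. Most of these transporters had small differences in the main fit, but SLC1A3 (1.51), SLC16A10 (0.91) and SLC6A14 (-0.87) did not. The cause of the changes of sign was not tested.

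Arrays of the same number did not deviate together (r = -0.137, -0.0633 and -0.104), so the main fit did not pair them. These correlations cannot tell whether such arrays shared a culture or a day. With the replicate block the same 13 transporters passed, and all genes called were 1404.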
